A study of Homo sapiens with 51 samples.

Results

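The M2rtTA transactivator was compared with its absence in cells that carried a control gene and no added OVOL2 gene. The comparison was made within each of 3 pancreatic ductal adenocarcinoma lines, KP4, PANC1 and PK45H. In each line 3 libraries co-transduced with an mCherry open reading frame and M2rtTA were set against 3 libraries transduced with mCherry alone. The 18 libraries were chosen by their group labels, out of 51 in the series, and the quantity described is the mean over the 3 lines of the within-line difference, M2rtTA minus no M2rtTA. The series overexpressed OVOL2, an epithelial transcription factor, in these lines and sequenced untreated cells of 5 lines, all by PLATE-seq, a plate-based method that counts messenger RNA from its 3′ end. The labels name mCherry as the negative control and the FUW-M2rtTA vector as a transcriptional amplifier for tetracycline-inducible systems.

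By the labels, all transduced groups received the same handling, controls included. Lentivirus was added at a multiplicity of infection of 2 with polybrene at 8 µg/ml. A day later the medium was given both drugs, doxycycline at 0.6 µg/ml and, to select transduced cells, puromycin at 2.5 µg/ml. Incubation lasted 6 days, and 100 ng of RNA entered each library. The mCherry libraries without M2rtTA were thus exposed to doxycycline too. For the untreated groups the labels do not say whether either drug was given. The M2rtTA libraries carry a second lentiviral vector, so that the transactivator protein, the added vector and any change in mCherry level cannot be told apart. The labels describe transductions in triplicate, and p-values measure the spread between these triplicates. Each line is one cell line, not a series of clones or donors.

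Tetracycline-inducible systems place a gene behind operators taken from a bacterial resistance operon. In the Tet-On form a fusion of a mutant tetracycline repressor and a viral activation domain, the reverse transactivator rtTA, binds these operators when doxycycline is present and turns the gene on. M2rtTA is a version of it with low activity in the absence of the drug, and FUW vectors express it constitutively from a ubiquitin promoter. Human cells have no gene for the repressor, and doxycycline itself is known to inhibit the mitochondrial ribosome. A control with transactivator, drug and an inert gene is therefore commonly used to read the cost of the system itself. mCherry is a red fluorescent protein of no known regulatory function.

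The table of counts held no M2rtTA or mCherry symbol, so that the level of the transactivator could not be read. Total counts of the 18 libraries ran from 2439323 to 7490556 with a median of 4748753, and 16431 to 18817 genes had at least 1 count. Levels are given as CPM, a count relative to the total of its library, scaled with edgeR's TMM factors over 45 libraries, in the order of replicates 1, 2 and 3. Differences between groups are log2 fold changes from edgeR's quasi-likelihood fit. Single libraries held very high counts for some genes: in 467 of 13852 genes (3.37%) a library had at least 5 CPM and at least 5 times each of the others of its group. Such genes are named as having a high library where they appear. In these cell cultures, fewer cells of a type and less RNA per cell cannot be told apart.

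No gene passed edgeR's test over the 18 libraries. In the fit of the 18 libraries, 0 of 13852 genes (0%) had a Benjamini-Hochberg adjusted p under 0.05 in edgeR over the 3 lines, and 1120 genes (8.09%) had an unadjusted p under 0.05, of which 522 (3.77%) were higher and 598 (4.32%) lower with M2rtTA. The smallest adjusted p was 0.0505 (ELOA-AS1). DESeq2, given the same 13852 genes, called 29, 17 higher and 12 lower, 6 of which had a high library. Its default filters left some of the 13852 genes without an adjusted p. A fit of the 45 libraries of the 3 lines, in which all groups shared one estimate of the spread, called 9 of 14943 genes (0.0602%), 5 higher (0.0335%) and 4 lower (0.0268%), 4 of them with a high library. The genes that both of these settings called were 5: ARL6IP5, BEX3, DKK3, RGS9 and SQSTM1.

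The absence of calls has a measured precision. The 95% confidence interval of the log2 fold change lay within a 2-fold change in either direction for 11651 genes (84.1%). Among the 10107 genes with a mean of at least 5 CPM it did so for 9455 (93.5%), and within 1.5-fold for 77.6%. Of all genes tested, 278 had an estimate over 2-fold, and 162 of those had a high library. The plot of the fold change against the level shows this narrowing.

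**Figure D1:**
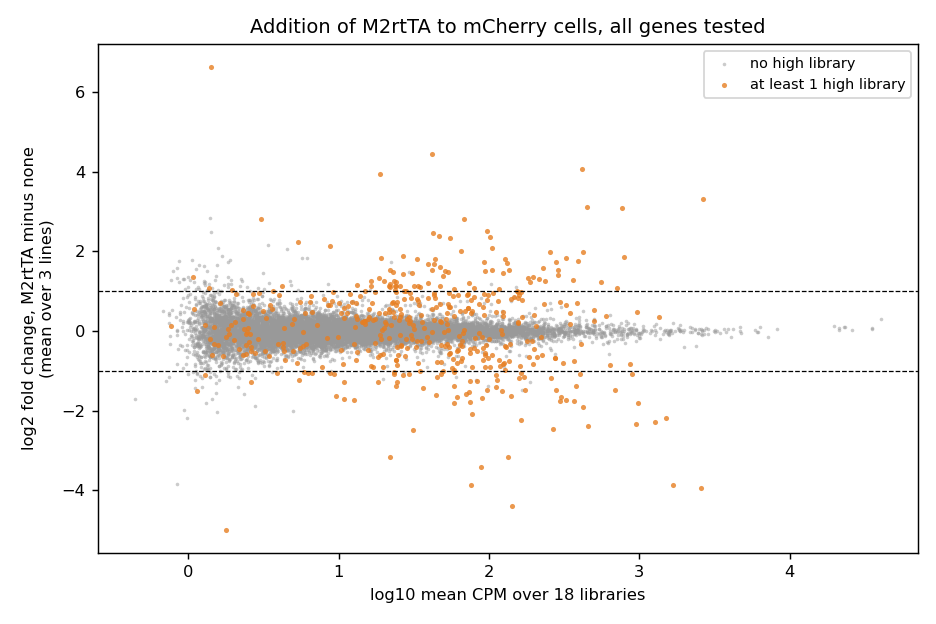
Each point is a gene of the 18-library fit; the horizontal axis is the log10 mean CPM and the vertical axis the log2 fold change of M2rtTA over lines, with orange points for the 467 genes with a high library and dashed lines at a 2-fold change. Grey points narrow around 0 as the level rises, and of the 278 genes past 2-fold, 162 are orange.

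By the median, M2rtTA libraries lay only slightly farther from mCherry libraries than libraries of one group lay from each other. The median absolute difference in log2 CPM over 10225 genes was 0.272 between the groups and 0.262 within them in KP4. The same pair of values was 0.265 and 0.248 in PANC1, and 0.295 and 0.258 in PK45H. Ranges over pairs of libraries overlapped: 0.24 to 0.298 between and 0.256 to 0.294 within groups in KP4. They were 0.242 to 0.283 and 0.243 to 0.282 in PANC1, and 0.275 to 0.313 and 0.22 to 0.336 in PK45H. Medians from untreated to mCherry and to M2rtTA libraries were 0.261 and 0.286 in KP4, 0.296 and 0.295 in PANC1, and 0.285 and 0.252 in PK45H. With OVOL2 in place of mCherry, the same addition of M2rtTA gave larger gaps. In KP4 the median was 0.365 between groups and 0.26 within them, in PANC1 0.335 and 0.284, and in PK45H 0.417 and 0.273.

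Among genes with a small unadjusted p and higher estimates were ARL6IP5, DKK3, BEX3 and TUBA1A, beside ELOA-AS1 and CBWD3, whose counts carry limits given with them. None of them passed the edgeR test over the 18 libraries. Only ELOA-AS1, at an edgeR adjusted p of 0.0505, lay near the threshold in that test. DESeq2 called ARL6IP5 (DESeq2 adjusted p = 0.00632), DKK3 (0.00132), BEX3 (0.00105), TUBA1A (0.00105) and CBWD3 (6.46e-05), and not ELOA-AS1. As a background for overlap, with factors of the 18 libraries, M2rtTA libraries lay wholly above mCherry libraries for 4.84% of all genes in KP4, 5.85% in PANC1 and 7.29% in PK45H. The shares wholly below were 6.11%, 6% and 7.07%. ARL6IP5 encodes a membrane protein that modulates glutamate transporter trafficking. It stood at 11.1, 9.74 and 10.2 CPM without and 16.4, 17.3 and 15.3 CPM with M2rtTA in KP4. PANC1 had 20.1, 16.1 and 17.3 against 20.6, 18.8 and 19.3 CPM. PK45H had 31, 23.8 and 24.7 against 44.8, 38.3 and 37 CPM. The groups did not overlap in KP4 and PK45H and overlapped in PANC1. The log2 fold change over lines was 0.45 (SE 0.08, edgeR adjusted p = 0.187), with 0.65 in KP4, 0.13 in PANC1 and 0.57 in PK45H.

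DKK3, which encodes a secreted member of the Dickkopf family, stood at 2.41, 1.04 and 1.39 CPM without and 2.03, 4.08 and 4.51 CPM with M2rtTA in KP4. In PANC1 it held 20.1, 18.7 and 24.1 against 30.6, 31.1 and 37.7 CPM. PK45H had 13.1, 13.5 and 14.8 against 21.4, 22.8 and 18.8 CPM. Every M2rtTA library was above every mCherry library in PANC1 and PK45H, and KP4 replicate 1 lay inside the mCherry range. The difference was 0.78 on the log2 scale (SE 0.15, edgeR adjusted p = 0.187). Under OVOL2 the same comparison gave 1.02 (edgeR adjusted p = 1.05e-05), which passed the test.

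BEX3, a small adaptor of the nerve growth factor receptor pathway, stood at 161, 152 and 130 CPM without and 181, 178 and 134 CPM with M2rtTA in KP4. In PANC1 the values were 56.5, 57.9 and 54.3 against 91.2, 76.6 and 75.2 CPM. In PK45H they were 118, 103 and 117 against 155, 166 and 158 CPM. KP4 overlapped, and the other two lines did not. The log2 fold change was 0.39 (SE 0.08, edgeR adjusted p = 0.251), against -0.03 under OVOL2. The difference between the arms was -0.42 (edgeR adjusted p = 0.00949) and passed the test.

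TUBA1A encodes an alpha tubulin that shares most of its coding sequence with its paralogs, so that its counts are uncertain. It stood at 41, 42.3 and 40.8 CPM without and 51.8, 52.3 and 33.3 CPM with M2rtTA in KP4. PANC1 had 14.2, 8.67 and 16.4 against 23.9, 28.2 and 25.1 CPM. PK45H had 32.4, 28.2 and 16.6 against 49, 48.2 and 48.4 CPM. KP4 overlapped, and PANC1 and PK45H did not. The estimate was 0.68 on the log2 scale (SE 0.14, edgeR adjusted p = 0.297), and under OVOL2 it was 0.71 (edgeR adjusted p = 0.000743). RGS9, a regulator of G protein signalling named after its values were seen, spread widely. Its PANC1 M2rtTA libraries held 9.84, 38.8 and 15.9 CPM against 7.78, 9.47 and 7.55 CPM, and its PK45H libraries 47.1, 25.8 and 21.9 against 12.6, 15.1 and 12.5 CPM. Its groups overlapped in KP4 only, and its log2 fold change was 1.02 (SE 0.23, edgeR adjusted p = 0.351).

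**Figure D2:**
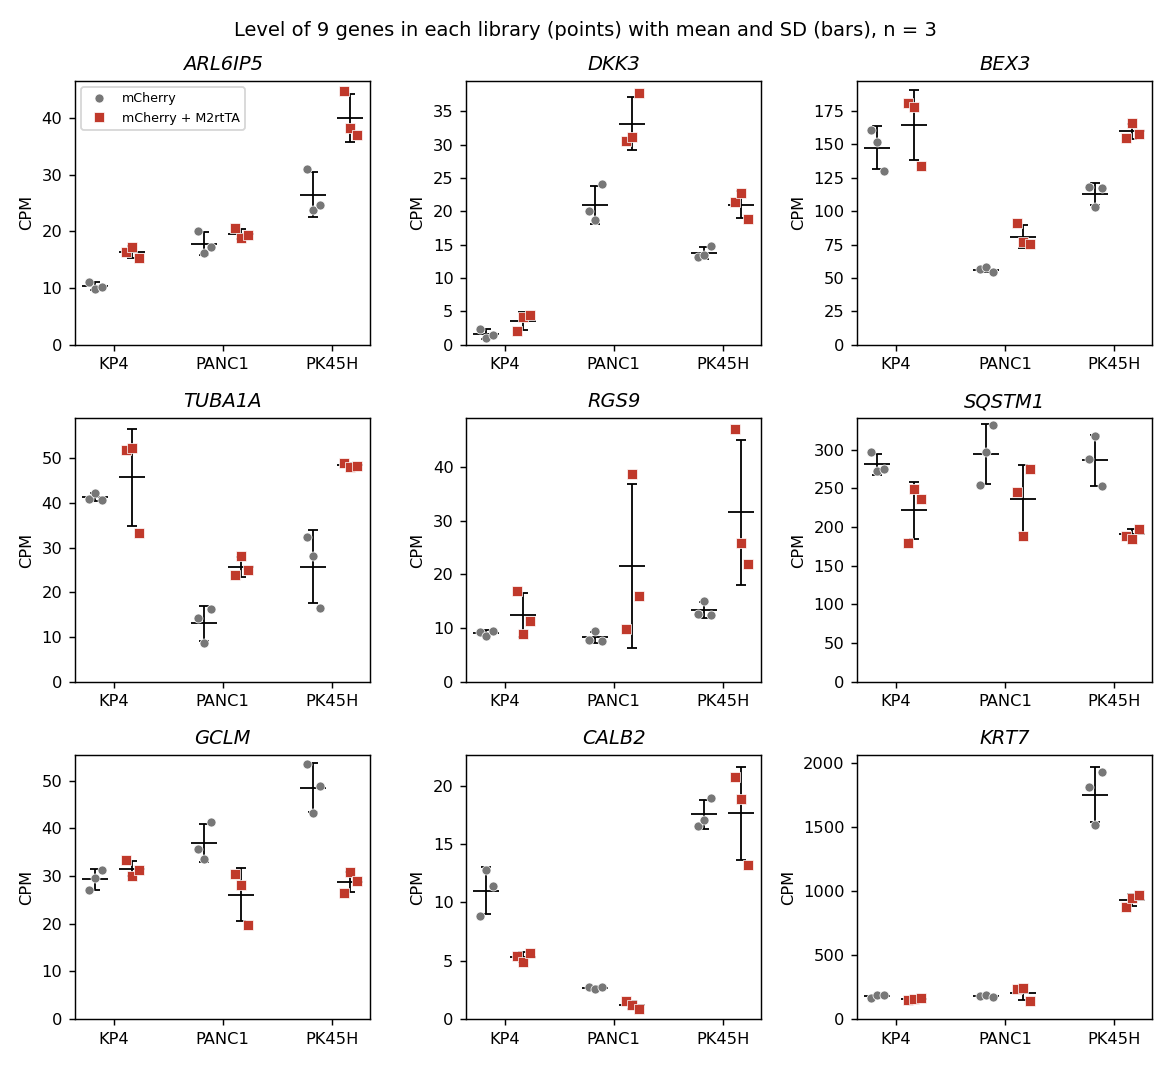
Levels in CPM of 9 genes, by line, with each library as a point (grey mCherry, red mCherry plus M2rtTA) and the mean and SD of its group (n = 3) as bars. ARL6IP5, BEX3 and DKK3 sit higher with M2rtTA and SQSTM1 lower, each with overlap in 1 line, and KRT7 is apart by a wide gap in PK45H only.

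On the lower side, genes with a small unadjusted p were SLC44A3-AS1, CALB2, ZNF714, SQSTM1 and CYP51A1. None of them lay near the adjusted threshold in edgeR over the 18 libraries. DESeq2 called SLC44A3-AS1 (DESeq2 adjusted p = 2.24e-06), SQSTM1 (0.00731) and ZNF714 (0.00947), and not CALB2 or CYP51A1. SQSTM1 encodes p62, a receptor of selective autophagy that also binds KEAP1 and thereby frees NRF2. It stood at 297, 272 and 275 CPM without and 180, 249 and 236 CPM with M2rtTA in KP4. In PANC1 it held 255, 297 and 332 against 246, 189 and 275 CPM. PK45H had 288, 318 and 253 against 189, 185 and 198 CPM. KP4 and PK45H did not overlap, and PANC1 did. The log2 fold change was -0.42 (SE 0.09, edgeR adjusted p = 0.312). Under OVOL2 SQSTM1 fell by 0.73 (edgeR adjusted p = 4.67e-09), from 551, 551 and 578 to 395, 388 and 406 CPM in KP4, with no overlap in any line. The difference between the arms was -0.31 (edgeR adjusted p = 0.0566).

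GCLM, the modifier subunit of the enzyme that limits glutathione synthesis and a target of NRF2, was the named NRF2 gene with the smallest p. In KP4 it stood at 27, 29.6 and 31.3 CPM without and 33.3, 30.1 and 31.3 CPM with M2rtTA. In PANC1 the values were 35.7, 33.6 and 41.4 against 30.4, 28.2 and 19.7 CPM. In PK45H they were 53.5, 43.3 and 48.8 against 26.5, 30.8 and 29 CPM. PANC1 and PK45H did not overlap and KP4 did. This came to -0.39 on the log2 scale (SE 0.09, edgeR adjusted p = 0.388), and under OVOL2 GCLM fell by 0.49 (edgeR adjusted p = 0.000197).

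CALB2, which encodes the calcium-binding protein calretinin, stood at 8.84, 12.8 and 11.4 CPM without and 5.41, 4.85 and 5.68 CPM with M2rtTA in KP4. PANC1 had 2.75, 2.53 and 2.76 against 1.57, 1.18 and 0.828 CPM. In PK45H, at 16.6, 17.1 and 19 against 20.8, 18.9 and 13.2 CPM, the groups overlapped. The log2 fold change was -0.74 (SE 0.14, edgeR adjusted p = 0.187), and the difference between the arms was 0.89 (edgeR adjusted p = 0.0104). CYP51A1, a demethylase of cholesterol synthesis, stood in PANC1 at 46, 42.7 and 45.3 against 34.4, 34.1 and 36.2 CPM and in PK45H at 48.5, 46 and 45.1 against 33.4, 33.5 and 35.9 CPM. In KP4 its groups overlapped, and the log2 fold change over lines was -0.28 (SE 0.06, edgeR adjusted p = 0.312). STEAP3, a metalloreductase named after its values were seen, stood at 49.3, 40.2 and 47.1 against 23.7, 28.8 and 24.1 CPM in KP4 and 80.2, 52 and 85.3 against 29.2, 48.2 and 50.6 CPM in PK45H, with no overlap, and the PANC1 groups overlapped. It had -0.55 over lines (edgeR adjusted p = 0.337). ZNF714, a zinc finger gene, had a log2 fold change of -0.69 (SE 0.13, edgeR adjusted p = 0.194), with -0.80, -0.65 and -0.61 in KP4, PANC1 and PK45H.

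At these scaling factors 5 genes had every M2rtTA library on one side of every mCherry library in all 3 lines, 3 above (0.0201% of 14943) and 2 below (0.0134%). They were chosen after their values were seen, and whether unrelated labels would give as many was not tested. Above were CSNK1G3, a casein kinase, GRIN2D, a glutamate receptor subunit, and VPS37A, a subunit of the endosomal sorting complex. Below were HNRNPU, a nuclear RNA-binding protein, and NMRAL1. VPS37A held 7.72, 6.01 and 7.19 against 10.4, 9.44 and 11.8 CPM in KP4, and its log2 fold change was 0.48 (SE 0.11, edgeR adjusted p = 0.351). With factors from the 18 libraries alone, 5 genes were above (0.0361%), IFITM3 and SH3BGRL3 among them, and 2 below (0.0144%). Under OVOL2, 134 genes were above (0.897%) and 257 below (1.72%) in all 3 lines.

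Other genes with a small unadjusted p carried a limit of their own. ELOA-AS1 is antisense to ELOA, and counting by strand was not stated, so that it may hold reads of its partner. It had a mean of 1.39 CPM, and its libraries held 0.161, 0 and 0 against 2.03, 0.51 and 1.37 CPM in KP4, 0, 0.133 and 0 against 2.01, 1.37 and 1.45 CPM in PANC1, and similar levels in both groups of PK45H. CBWD3 belongs to a family of near-identical copies. It had a log2 fold change of 1.09 (SE 0.21, edgeR adjusted p = 0.187), with 0.05 in KP4, 1.67 in PANC1 and 1.56 in PK45H. SLC44A3-AS1 had -1.15 (SE 0.22, edgeR adjusted p = 0.187), is likewise antisense, and stood at 205, 217 and 203 against 105, 164 and 114 CPM in PK45H. SPATA4, at 3.95 (edgeR adjusted p = 0.337), and MARVELD3, at -4.38 (edgeR adjusted p = 0.336), rested on high libraries: 128 and 134 CPM in a PANC1 and a KP4 M2rtTA library for SPATA4, and 1350 and 937 CPM in a KP4 and a PANC1 mCherry library for MARVELD3.

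Within single lines edgeR called 0 genes in KP4, PANC1 and PK45H (0% of 13852 each). Unadjusted p under 0.05 was met by 882 genes in KP4 (6.37%), 958 in PANC1 (6.92%) and 1313 in PK45H (9.48%). The smallest adjusted p in the 3 lines was 0.314, 0.285 and 0.211. The effect did not pass a test of differing between lines for any gene (0%, with 1172 or 8.46% at an unadjusted p under 0.05). DESeq2 called 38, 37 and 98 genes in the 3 lines and 48 that differed between them. In PK45H the genes with the smallest p that lacked a high library, named after their values were seen, were KRT7, ABCC3, SCD and ALDH3A1. KRT7, a ductal keratin, stood at 1810, 1510 and 1930 CPM without and 877, 942 and 969 CPM with M2rtTA. In KP4 it was 167, 183 and 188 against 151, 152 and 161 CPM, and in PANC1 181, 189 and 173 against 233, 242 and 143 CPM. The PK45H groups lay far apart, with a log2 fold change of -0.93, and leaving out PK45H mCherry replicate 2 gave 17 calls in that line, KRT7 among them.

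ALDH3A1, an aldehyde dehydrogenase, followed the same order in PK45H. It stood at 48.3, 40.5 and 49 against 15.3, 20.4 and 19 CPM, a log2 fold change of -1.35. ABCC3, an efflux transporter of conjugated compounds, stood at 74.8, 63.9 and 61.5 against 37.9, 29 and 41.8 CPM (-0.90), and SCD, the desaturase of fatty acid synthesis, at 67.8, 71.9 and 79.5 against 42.3, 48.2 and 42.8 CPM (-0.73). In KP4 and PANC1 their groups overlapped, except those of KRT7 in KP4, which lay close together. Over the 3 lines the log2 fold changes were -0.32 for KRT7, -0.37 for ALDH3A1, -0.25 for ABCC3 and -0.25 for SCD. VEGFB, a growth factor of the VEGF family, and TGM2, a transglutaminase, were named after their values were seen in KP4 and PANC1. VEGFB held 20.4, 17.4 and 16.9 against 10.1, 8.42 and 10.8 CPM in KP4, a log2 fold change of -0.90 (edgeR adjusted p = 0.314). TGM2 held 24, 28 and 25.8 against 63.3, 41.9 and 40 CPM in PANC1 (0.90, edgeR adjusted p = 0.285) and 409, 326 and 433 against 263, 255 and 260 CPM in PK45H (-0.60, edgeR adjusted p = 0.242). Neither pair of TGM2 groups overlapped, and the lines went in opposite directions. The 45-library fit called TGM2 in PANC1 (edgeR adjusted p = 0.0116) and between lines (0.0165). DESeq2 also called it between lines (DESeq2 adjusted p = 1.32e-05). The 45-library fit called KRT7 (edgeR adjusted p = 0.0364), ABCC3 (0.019) and ALDH3A1 (0.0476) in PK45H.

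A set of genes was read whatever their values here, and none passed the edgeR test over lines. The set was chosen with earlier results of these data known. CDH1, the epithelial cadherin, had a log2 fold change of 0.04, EPCAM -0.05, ZEB1, a repressor of epithelial genes, -0.09 and VIM, an intermediate filament of mesenchymal cells, -0.07. VIM stood at 1960, 1710 and 1770 against 1580, 1690 and 1410 CPM in KP4 and 206, 258 and 216 against 233, 246 and 244 CPM in PK45H. Other members of these programmes, named for the smallest p within their lists, had larger estimates. SPARC, a secreted matrix protein, had 1.26 over lines (edgeR adjusted p = 0.462), with 0.29 in KP4, 0.85 in PANC1 and 2.63 in PK45H. It stood at 8.01, 7.2 and 8.65 against 15.4, 13.9 and 13.7 CPM in PANC1 and at 0.248, 1.19 and 0 against 2.41, 2.24 and 2.8 CPM in PK45H, with no overlap in these lines and overlap in KP4. The estimate was 0.54 for CLDN7, a claudin, 0.29 for JUP, a junction plaque protein, and -0.44 for TGFB1I1. ISG15, an interferon-induced ubiquitin-like protein, had -0.10, and IFIT1 0.19. CDKN1A, the cell cycle inhibitor downstream of p53, had 0.30 (edgeR adjusted p = 0.462), and 2 of the 3 lines had no overlap between its groups. ASNS had -0.17 and TRIB3 -0.27, both targets of ATF4. MKI67, a proliferation marker, had -0.10. HMGCS1, an enzyme of sterol synthesis, had 0.05, AKR1C2 0.33 and KRT19 -0.24.

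The mean over lines covered unlike values for EPHB1 and KIF3B. EPHB1, an ephrin receptor, had -0.40 over lines and -2.17 in PK45H, where it stood at 8.91, 7.54 and 6.01 against 1.96, 1.87 and 1.18 CPM without overlap. In KP4 and PANC1 its groups overlapped. The 45-library fit called it in PK45H (edgeR adjusted p = 0.0476). KIF3B, a kinesin motor subunit, had -0.18 over lines, -2.42 in KP4, 0.58 in PANC1 and 1.29 in PK45H. It stood at 503, 98.8 and 41.1 against 25.2, 44.1 and 50.7 CPM in KP4, where mCherry replicate 1 is a high library, and at 35.2, 27.4 and 35.6 against 93, 84.1 and 66.7 CPM in PK45H. The 45-library fit called it in KP4 (edgeR adjusted p = 0.0447) and between lines (0.0472), and without KP4 mCherry replicate 1 the KP4 value was -0.81.

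The 20 pathway lists held no gene called over lines by edgeR in the 18-library or the 45-library fit. DESeq2 called 6 members: MARVELD3, SPARC, IFITM2, IFITM3, GCLM and PFKM. Over all genes DESeq2 called 29 of the 13852 it was given. Together with the marker lists, the 26 lists held 722 genes before filtering. The medians of the 20 pathway lists lay between -0.08 and 0.11 in the 18-library fit. The median over all genes tested was -0.01, and 48.6% of them had positive estimates. Epithelial genes had a positive estimate in 20 of 33 tested (median 0.11) and keratins in 3 of 8 (-0.04). At an unadjusted p under 0.05, 2 epithelial genes were higher and 1 lower, and 0 keratins higher and 3 lower. Mesenchymal genes had one in 22 of 36 (0.04) and interferon-induced genes in 26 of 47 (0.02). At the same limit 3 mesenchymal genes were higher and 2 lower, and 6 interferon-induced genes higher and 2 lower. Genes of the amino acid response driven by ATF4 were positive in 18 of 43 (-0.04), with 1 higher and 5 lower at an unadjusted p under 0.05. Targets of p53 were positive in 18 of 29 (0.10), 4 of them at an unadjusted p under 0.05 and none lower.

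Cell cycle genes were positive in 14 of 46 (-0.04), genes of sterol and fatty acid synthesis in 11 of 34 (-0.08) and NRF2 detoxification genes in 11 of 33 (-0.07). At an unadjusted p under 0.05, 2, 5 and 4 of these were lower and none higher. The unfolded protein response was positive in 13 of 23 (0.06), heat shock genes in 12 of 18 (0.04), immediate early genes in 15 of 27 (0.03) and NF-kB genes in 16 of 26 (0.02). Glycolysis and hypoxia genes were positive in 11 of 30 (-0.04), Eph receptors and ephrins in 6 of 14 (-0.08), kinesins in 7 of 18 (-0.05) and aldehyde dehydrogenases in 8 of 17 (-0.01). No list's shift was tested, and the all-gene share at an unadjusted p under 0.05 was 3.77% higher and 4.32% lower.

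**Figure D3:**
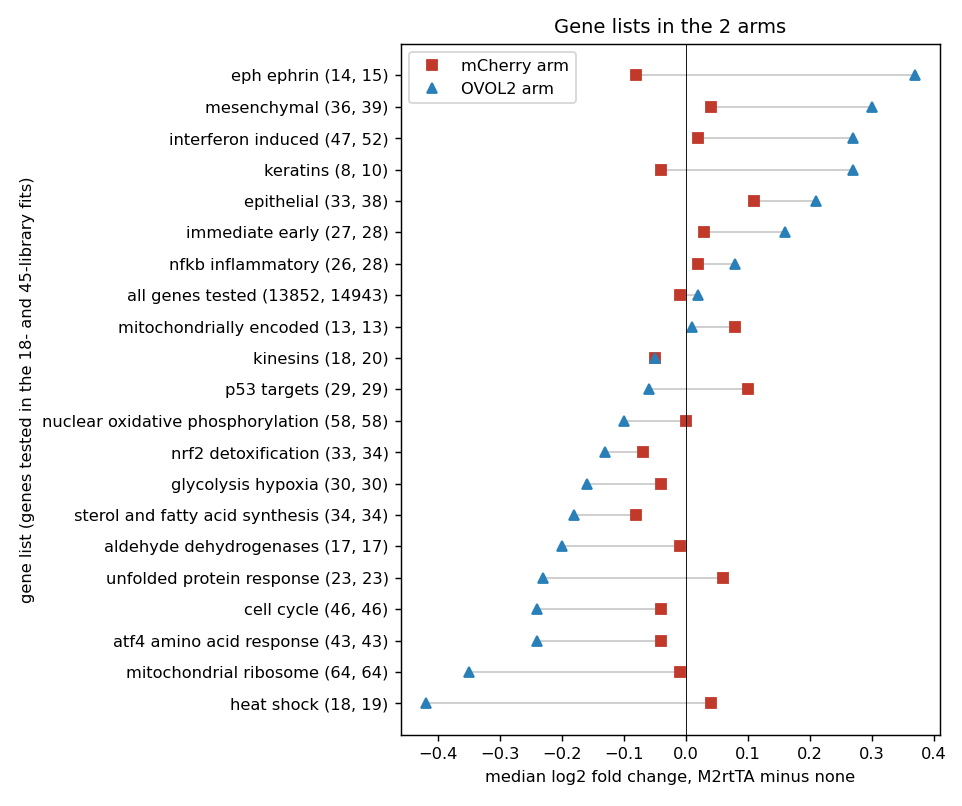
Median log2 fold change of M2rtTA over the tested genes of 20 lists and over all genes, as red squares under mCherry (18-library fit) and blue triangles under OVOL2 (45-library fit), with the 2 numbers of genes tested in parentheses. Red squares lie between -0.08 and 0.11, and blue triangles between -0.42 and 0.37.

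By the labels all 18 libraries received doxycycline. Among genes encoded in mitochondrial DNA, 11 of 13 had a positive estimate (median 0.08), with 2 at an unadjusted p under 0.05. ND2, a subunit of complex I, had 0.29 (SE 0.09, edgeR adjusted p = 0.492). Nuclear genes of oxidative phosphorylation were positive in 29 of 58 (-0.00) and of the mitochondrial ribosome in 32 of 64 (-0.01). The share of counts from mitochondrial messenger RNA was 21.9% to 25.9% without (median 23.2%) and 23.5% to 26% with M2rtTA (median 25%), so that the groups overlapped.

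Within lines the mean share was 23.4% ± 0.466 against 24.8% ± 1.2 (SD, n = 3) in KP4. PANC1 had 23.7% ± 1.91 against 25.1% ± 0.163, and PK45H 23.1% ± 1.12 against 25% ± 0.967. The mean difference was 1.59 percentage points, higher in 3 of 3 lines, by an exact permutation test within lines (two-sided, 8000 assignments, p = 0.00875, Benjamini-Hochberg adjusted p = 0.0262 over 3 tests). Leaving out 1 library at a time gave differences of 1.39 to 1.95 and exact permutation p between 0.001 and 0.02. Log2 total counts differed by 0.148 over lines (exact permutation p = 0.446), with -0.13 for KP4, -0.233 for PANC1 and 0.808 for PK45H. In the last line the M2rtTA totals, 6618011, 5332703 and 6695312, all lay above the mCherry totals, 4064921, 2439323 and 4437907, so that depth differed between the groups there. When counts were thinned to equal totals, edgeR called 0 genes in PK45H, and the log2 fold changes in that line were -0.92 for KRT7, -1.33 for ALDH3A1, -0.87 for ABCC3 and -0.66 for SCD. Under OVOL2 the mean share was also higher with M2rtTA in each line, a difference that was not tested. KP4 had 23.9% ± 0.339 without and 25.5% ± 1.07 with it (SD, n = 3), PANC1 28.7% ± 0.406 and 30.9% ± 0.587, and PK45H 23.6% ± 0.425 and 25.2% ± 0.1. In untreated cells the share was above the mCherry mean of every line: KP4 had 24.7% ± 0.928, PANC1 26.3% ± 0.657 and PK45H 26.6% ± 0.937 (SD, n = 3).

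**Figure D4:**
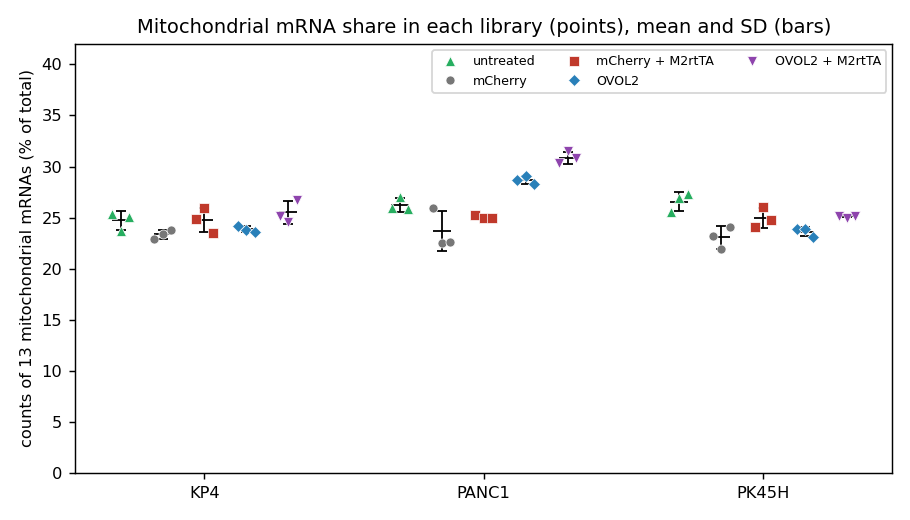
Percent of counts from 13 mitochondrially encoded messenger RNAs in each library (points), by line and group, with mean and SD as bars (n = 3). M2rtTA means sit 1.37, 1.45 and 1.93 points above mCherry means in KP4, PANC1 and PK45H, and single libraries overlap.

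Markers of other cell types were low. Leukocyte markers summed to 3.78 to 7.24 CPM without and 3.9 to 13.8 CPM with M2rtTA, fibroblast markers to 6.85 to 26.8 and 9.94 to 32.2 CPM, and endothelial markers to 4.14 to 14.5 and 4.96 to 15.2 CPM. Acinar markers summed to 20.6 to 40.5 and 18 to 34.8 CPM and erythroid markers to 1.59 to 11.7 and 0.508 to 6.95 CPM. Among the leukocyte, acinar and erythroid lists 1 member each was at 0 in all 18 libraries. Ductal carcinoma markers summed to 747 to 3010 and 611 to 2600 CPM, and all 5 had negative estimates (median -0.24). KRT7, KRT8 and KRT19 are among those 5. KRT8 had -0.40 (SE 0.12, edgeR adjusted p = 0.492).

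The same addition of M2rtTA was measured with OVOL2 in place of mCherry in 18 other libraries of the 3 lines. In the 45-library fit edgeR called 2817 of 14943 genes (18.9%), 1132 higher (7.58%) and 1685 lower (11.3%). The effect differed between the arms for 1154 genes (7.72%), 390 positive (2.61%) and 764 negative (5.11%) in OVOL2 minus mCherry. OVOL2 itself was higher with M2rtTA in that arm by 1.68 on the log2 scale (edgeR adjusted p = 0.00447). M2rtTA and the higher OVOL2 level therefore cannot be told apart in that arm. Without the added OVOL2 gene, OVOL2 counts were 0 to 16 in every library. The M2rtTA minus mCherry difference in OVOL2 log2(CPM + 1) was -0.203 (exact permutation p = 0.436, two-sided).

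PFDN2, a subunit of the prefoldin chaperone, was among the 4 falls with the smallest p in the OVOL2 arm. Under OVOL2 it stood at 252, 219 and 250 CPM without and 99.7, 73.2 and 74.3 CPM with M2rtTA in KP4. Under mCherry it stood at 352, 275 and 308 against 322, 329 and 294 CPM. The OVOL2 groups did not overlap, and the mCherry groups did. It fell by 1.36 under OVOL2 (edgeR adjusted p = 3.22e-13) and had 0.00 under mCherry, a difference of -1.36 (edgeR adjusted p = 6.58e-09). MRPL41, RUVBL2 and MRPL24 fell by 1.27, 1.21 and 1.08 under OVOL2 and had -0.06, -0.05 and -0.05 under mCherry.

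S100A4, a calcium-binding protein of motile cells, stood at 66.3, 72.7 and 68.8 against 449, 336 and 331 CPM under OVOL2 in PK45H. Under mCherry in the same line it stood at 104, 116 and 144 against 209, 194 and 174 CPM. Both groups were apart in that line. It rose by 1.14 under OVOL2 over lines (edgeR adjusted p = 1.96e-10), with -0.05 for KP4, 1.04 for PANC1 and 2.42 for PK45H, and had 0.32 under mCherry (edgeR adjusted p = 0.462), a difference of 0.81 (edgeR adjusted p = 0.000171). APLP1 rose by 0.97, ATF5 by 1.44 and PADI2 by 1.10 under OVOL2, and had 0.13, -0.11 and -0.23 under mCherry. VIM rose by 0.45, ISG15 by 0.67 and ASNS fell by 0.90 under OVOL2, with differences between the arms of 0.52, 0.76 and -0.73 (edgeR adjusted p = 0.00109, 3.32e-05 and 9.55e-05).

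**Figure D5:**
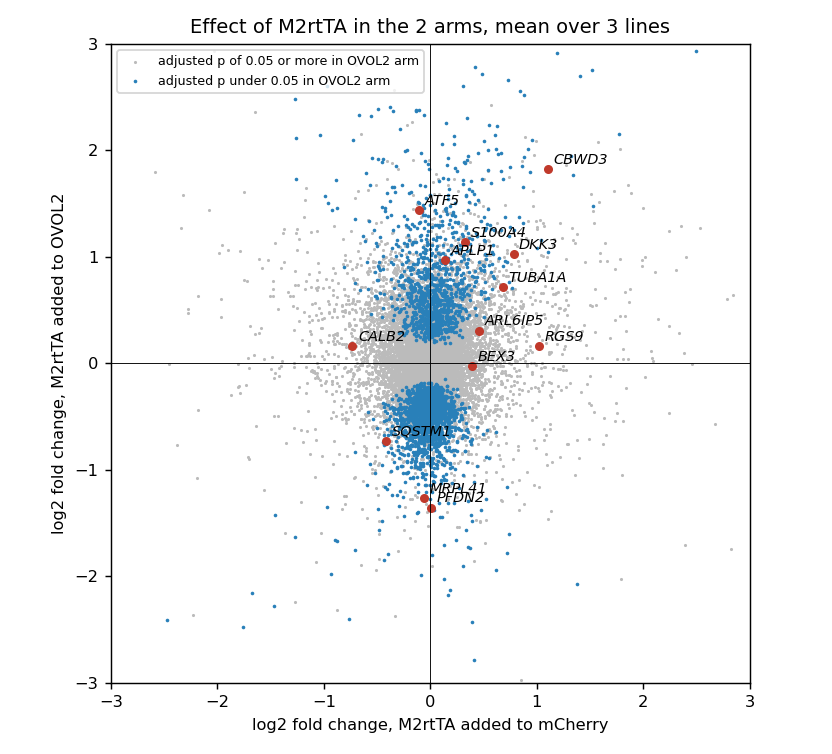
Log2 fold change of M2rtTA under mCherry (horizontal) against OVOL2 (vertical) for 14943 genes of the 45-library fit, of which 31 lie outside the axes; blue points passed the test under OVOL2 and red points are named genes. The cloud is taller than it is wide, with an interquartile range of 0.28 under mCherry and 0.53 under OVOL2.

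Across the 14943 genes the effects in the arms had a Spearman correlation of 0.06, a description across genes that are not independent. Of the 2817 genes called under OVOL2, 56.3% had the same sign under mCherry and 99.1% were larger in size under OVOL2, a share that the choice of genes by that arm raises. In the 45-library fit the mitochondrial ribosome list had 1 gene higher and 35 of 64 lower under OVOL2, and the heat shock list 2 higher and 12 of 19 lower, beside 7.58% higher and 11.3% lower over all genes. These lists are named after their values were seen, and neither held a gene called under mCherry in the same fit. The plot of list medians shows the other lists.

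Both mCherry groups were also set against untreated cells. mCherry minus untreated gave 73 called genes of 14943 (0.489%), 44 higher (0.294%) and 29 lower (0.194%), and mCherry plus M2rtTA minus untreated gave 69 (0.462%), 36 higher (0.241%) and 33 lower (0.221%). The comparisons share the untreated libraries. ASNS, the asparagine synthetase, rose by 0.93 (edgeR adjusted p = 1.37e-08) in the first and by 0.77 (1.02e-06) in the second. TRIB3 rose by 1.15 (5.21e-06) and by 0.88 (0.000542). SCD fell by 0.75 (1.09e-05) and by 0.99 (7.04e-08). ARL6IP5 had -0.37 (edgeR adjusted p = 0.0391) with mCherry alone and 0.09 (0.816) with M2rtTA. DKK3 had -0.55 and 0.23, TUBA1A -0.49 and 0.19, SQSTM1 0.30 and -0.12 and GCLM 0.32 and -0.06, none called. CALB2 lay farther from untreated cells with M2rtTA, at 0.21 (0.746) and -0.52 (0.272), as did KRT19, at -0.28 (0.131) and -0.51 (0.000542). Each difference shares libraries with the M2rtTA comparison, and which group had moved was not tested.

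Promoter windows show whether the letters that rtTA reads occur near the genes. RefSeq windows of GRCh38.p14 covering 250 bases before each start were searched on both strands for CTATCA, one arm of the tet operator. It occurred in 1773 of 35116 windows (5.05%), and a facing pair of arms 1 base apart occurred in 0. Of 10887 tested genes with a window matched by symbol, 519 held the arm (4.77%). Their median log2 fold change was 0.01, beside -0.01 for all matched genes, and 7.51% of them had an unadjusted p under 0.05 beside 8.14%. Windows were read for 96 of the 135 named genes, and whether the other named genes held the arm was not read for this count. Of those 96, 1 held the arm, CPB1, which encodes a pancreatic carboxypeptidase and had a log2 fold change of 0.07. GCLM and GSTO1 are shown for the core of the antioxidant response element, TGACNNNGC, which NRF2 binds and which was found in 3830 windows (10.9%). GSTO1, a glutathione transferase named after its values were seen, had a log2 fold change of 0.25 (edgeR adjusted p = 0.462). ARL6IP5 is shown as a gene with a small unadjusted p and without either. Capitals mark the arm in CPB1 and the core in GCLM and GSTO1. The windows lie at chr3:148827561-148827810 on the plus strand for CPB1, chr1:93909431-93909680 on the minus strand for GCLM, chr10:104254642-104254891 on the plus strand for GSTO1 and chr3:69084687-69084936 on the plus strand for ARL6IP5.
CPB1: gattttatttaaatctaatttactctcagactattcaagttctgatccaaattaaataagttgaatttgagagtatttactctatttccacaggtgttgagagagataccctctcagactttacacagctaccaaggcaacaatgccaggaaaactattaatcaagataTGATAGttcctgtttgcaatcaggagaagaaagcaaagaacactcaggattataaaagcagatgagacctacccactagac
GCLM: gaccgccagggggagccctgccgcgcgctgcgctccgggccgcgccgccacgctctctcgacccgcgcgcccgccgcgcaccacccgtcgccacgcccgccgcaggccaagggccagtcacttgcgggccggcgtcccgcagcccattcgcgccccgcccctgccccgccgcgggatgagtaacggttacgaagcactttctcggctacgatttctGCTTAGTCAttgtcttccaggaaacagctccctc
GSTO1: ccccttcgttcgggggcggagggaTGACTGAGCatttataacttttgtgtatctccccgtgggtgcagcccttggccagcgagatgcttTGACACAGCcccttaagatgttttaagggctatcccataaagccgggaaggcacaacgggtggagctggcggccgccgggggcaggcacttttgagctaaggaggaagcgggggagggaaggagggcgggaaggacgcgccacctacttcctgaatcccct
ARL6IP5: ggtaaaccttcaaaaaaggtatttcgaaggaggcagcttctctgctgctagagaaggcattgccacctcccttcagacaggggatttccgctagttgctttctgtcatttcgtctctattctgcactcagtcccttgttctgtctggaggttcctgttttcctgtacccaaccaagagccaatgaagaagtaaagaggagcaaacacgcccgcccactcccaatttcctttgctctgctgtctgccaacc
The GCLM core ended 25 bases before the start, and the cores of GSTO1 ended 217 and 152 bases before it. Of the NRF2 list, 22 tested genes had a window and 6 held the core: CBR1, EPHX1, GCLM, GPX2, PGD and TXNRD1. Counted by gene in the same way, 1701 of all 10887 matched genes held the core. A match describes letters in a window and is not a measured binding site.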

How the data were processed

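The deposited table of counts holds whole-number counts per gene symbol for 51 libraries of PLATE-seq, with 25421 genes. The submitters' processing notes name kallisto 0.44.0 and GRCh38 without saying how each was used, and how the authors made the counts is otherwise not given in the sources used here. In R 4.3.3, edgeR 4.0.16 fitted group means to the 18 libraries (TMM, filterByExpr, quasi-likelihood test, Benjamini-Hochberg over all 13852 genes tested, threshold 0.05, two-sided). The OVOL2 arm, the difference between the arms and the untreated groups came from a fit of 45 libraries of the 3 lines. DESeq2 1.42.0, RLE scaling, other filters, thinning, a replicate block and leaving out each library or line were alternatives. The scripts were tested on simulated data. Named genes were the rule's largest called changes per direction, filled up to 6 with the next smallest p at a mean of at least 5 CPM, the called genes of smallest p in the OVOL2 arm and between the arms, fixed genes, and up to 3 members of each of 26 lists. The fixed genes, the lists and their members were chosen with earlier results of these data known. No 2 libraries of a group agreed within sampling noise (smallest chi-square per degree of freedom 16.7). No interval here covers more than the spread between replicates.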

Additional observations from a re-analysis of the deposited data

Results flagged for a closer look

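The effect of M2rtTA differed between the OVOL2 and mCherry arms for 1154 genes in a test of the difference itself, and the named genes among them are listed here with the OVOL2-arm log2 effect minus the mCherry-arm log2 effect. OVOL2 itself rose with M2rtTA in its arm, so that M2rtTA and the OVOL2 level cannot be told apart in these differences. Positive differences were SLC44A3-AS1 1.53, CALB2 0.89, KRT8 0.64, KRT19 0.51, S100A4 0.81, IFI35 0.76, ABCC3 0.61, VIM 0.52, ISG15 0.76, APLP1 0.83, CLU 0.75, H4C8 0.90, PADI2 1.32, ATF5 1.54, PPDPF 0.54, GCM1 3.49, HYKK 4.09, OVOL2 2.25, COL1A1 1.41, HBA1 1.90 and PMEPA1 0.50. Negative differences were BEX3 -0.42, RGS9 -0.86, SH3BGRL3 -0.36, VPS37A -0.71, AARS1 -0.53, HSPA5 -0.40, HK1 -0.70, ASNS -0.73, MRPL41 -1.21, PFDN2 -1.36, RUVBL2 -1.16, MRPL24 -1.03, FAM131A -3.36, HSPH1 -0.63, HSPA1A -0.75, SH3BGRL -1.03, LOC100233156 -1.41, BCL2L2-PABPN1 -8.79 and KIAA0930 -3.00. SPATA4, at -6.74, and MARVELD3, at 6.39, had high libraries under mCherry. The RGS9 difference lost the threshold in 27 of 44 alternatives, with values between -0.98 and -0.61, that of KIAA0930 in 28, HSPA1A in 9, and BCL2L2-PABPN1 and LOC100233156 in 3 each. H4C8 belongs to a histone family of similar copies, so that its counts are uncertain. The difference was tested with edgeR on 45 libraries, with a Benjamini-Hochberg adjusted p under 0.05 for each gene. GCM1, HYKK, FAM131A, BCL2L2-PABPN1 and KIAA0930, named after their values were seen, also had a high library among the 18, and BCL2L2-PABPN1 overlaps other genes. HBA1 and HSPA1A have near-identical copies, so that their counts are uncertain.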

How the results depend on the processing

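The absence of calls over lines held in 26 of 32 settings. The others gave 9 genes (45 libraries), 4 (45 libraries and robust dispersion, added after seeing the data), 29 (DESeq2), 1 (genes with a high library left out, added after seeing the data), 1 (RLE scaling) and 1 without KP4 mCherry plus M2rtTA replicate 2, where ELOA-AS1 had an edgeR adjusted p of 0.021. Leaving out 1 library gave 0 to 1 over lines, 0 to 2 in KP4, 0 to 5 in PANC1 (5 without PANC1 mCherry replicate 2), 0 to 17 in PK45H and 0 to 7 for the difference between lines (17 and 7 without PK45H mCherry replicate 2). With 45 libraries the counts were 18 in KP4, 20 in PANC1, 38 in PK45H and 8 between lines. With DESeq2 they were 38, 37, 98 and 48, and with the libraries of PK45H alone 1. Thinning every library to the smallest total left 764 genes that differed between the arms, against 1154, and leaving out 1 library gave 928 to 1175. mCherry against untreated gave 144 genes with DESeq2, 41 with no filter, 25 with only the groups compared and 39 to 79 with 1 library left out, and mCherry plus M2rtTA against untreated 148, 26 with only those groups and 38 to 72. The cause of these moves was not tested. Replicates of different groups share only a number: same-numbered libraries deviated together with correlations of -0.07 to 0.09. With a replicate block, edgeR called 0 genes over lines, 2609 in the OVOL2 arm, 1001 between the arms, 35 for mCherry and 45 for mCherry plus M2rtTA against untreated.

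Of 142 gene results, 14 changed sign in some setting. Without PK45H these were ABCC3 0.08, AKR1C2 -0.12, ALDH3A1 0.13, IFIT1 -0.21, MKI67 0.01, PFDN2 -0.05 and SCD 0.00, and without KP4 EPCAM 0.03, KIF3B 0.94, MRPL24 0.02, PFDN2 -0.00 and PPDPF 0.02. Without PANC1 CDH1 had -0.00, after thinning CDH1 -0.18 and EPCAM 0.03, with the replicate block KIF3B 0.08, and with DESeq2 or RLE scaling PPDPF 0.00. With 1 library left out the ranges were CDH1 -0.12 to 0.21, EPCAM -0.10 to 0.04, HMGCS1 -0.01 to 0.16, IFIT1 -0.05 to 0.64, KIF3B -0.34 to 0.37, PFDN2 -0.02 to 0.06, PPDPF -0.03 to 0.02 and ZEB1 -0.18 to 0.04. Depth limits low genes such as ELOA-AS1, and the 95% interval lay within 1.5-fold for 59.2% of genes tested.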
